A study of Mus musculus with 3 samples.

Results

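Lyz1, Lyz2, Mpeg1 and Pglyrp1 encode proteins with which phagocytes attack bacteria. The 4 genes were selected by symbol, with earlier results of these data known, and all 4 were found among the 55536 gene rows of the deposited tables. They were measured in RNA of the cytosolic fraction of bone-marrow-derived macrophages, cells grown in culture from mouse marrow precursors, of the C57BL/6J strain. All cells had been given 100 ng/ml Lipid A, the membrane-anchored part of bacterial lipopolysaccharide, for 20 min, and ribosomal RNA was depleted before sequencing. There were 3 libraries, replicates 1 to 3 of this 1 condition. The labels call them biological replicates, give them 1 shared donor identifier and record neither age nor sex, so each SD below is a spread among these 3 libraries and may be technical in part. Cells without Lipid A are not analysed here, so levels are given and no response to the stimulus.

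Lysozyme cuts the sugar backbone of peptidoglycan, the polymer of the bacterial cell wall. The mouse has tandem copies of the gene: Lyz2, or lysozyme M, is the form of macrophages and granulocytes and a common marker of the myeloid lineage, and Lyz1, or lysozyme P, is best known from the Paneth cells of the gut. Mpeg1 encodes perforin-2, a macrophage protein of the membrane attack complex and perforin (MACPF) family that forms pores in the envelope of engulfed bacteria. Pglyrp1 encodes a secreted peptidoglycan recognition protein that is stored in neutrophil granules.

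Both lysozyme genes lie on the minus strand of chromosome 10 of mm10, Lyz2 (ENSMUSG00000069516.8) at 117277331 to 117282321 and Lyz1 (ENSMUSG00000069515.6) at 117287797 to 117292868, with 5475 bases between them. Mpeg1 (ENSMUSG00000046805.10) lies on chromosome 19 at 12460779 to 12465283 and Pglyrp1 (ENSMUSG00000030413.7) on chromosome 7 at 18871331 to 18890459, both on the plus strand. In the GENCODE M21 annotation none of the 4 overlapped another gene. Lyz1, Lyz2 and Mpeg1 had 1 annotated transcript each, and Pglyrp1 had 4.

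The paralogs are so alike that the assignment of their reads had to be examined before their levels. Each transcript has 4 exons and a coding sequence of 447 bases with the stop codon, of which 425 bases, or 95.1%, were identical. Over the whole transcripts 1211 of 1262 aligned bases, 96.0%, were identical, and the longest identical run was 118 bases. The second exon is shown because it is coding throughout and holds both long identical runs and differences. It differed at 6 of 165 bases, printed in capitals (strand of the gene, GENCODE M21, chr10:117291029-117291193 for Lyz1 and chr10:117280641-117280805 for Lyz2).

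Lyz1: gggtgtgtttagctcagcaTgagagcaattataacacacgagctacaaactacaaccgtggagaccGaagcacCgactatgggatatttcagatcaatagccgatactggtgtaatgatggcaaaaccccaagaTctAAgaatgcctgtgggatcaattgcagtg

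Lyz2: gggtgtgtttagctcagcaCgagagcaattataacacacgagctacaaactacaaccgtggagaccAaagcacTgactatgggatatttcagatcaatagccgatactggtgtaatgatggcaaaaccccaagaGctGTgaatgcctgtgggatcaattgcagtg

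A read can be placed only where it crosses such differences. Of all 31-base windows of the Lyz1 transcript, 34.2% also occurred in Lyz2, and in the reverse direction 32.8%. With 100-base windows these shares fell to 2.06% and 1.97%. No transcript of any other gene held a 31-base window of either lysozyme. Across the alignment, windows of 100 columns held from 0 to 13 differences with a median of 3, and 24 of 1165 windows held none. No read length of these libraries was found in their labels. For Mpeg1 0.720% of 31-base windows occurred in another gene, the neighbouring Pfpl, which had at most 1 expected count in any library. The coding transcript of Pglyrp1 shared no such window with another gene.

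**Figure D1:**
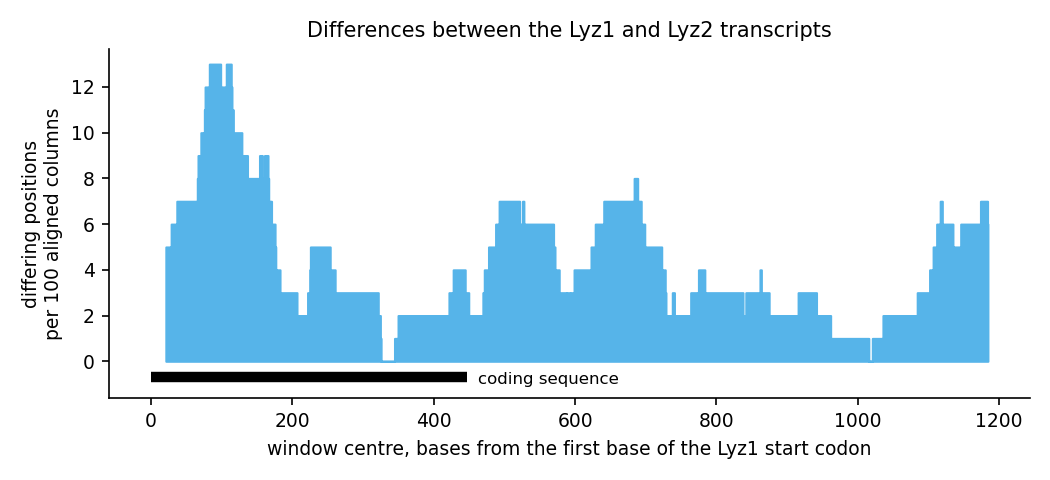
Differences between the Lyz1 and Lyz2 transcripts in windows of 100 alignment columns, plotted at the window's centre in bases from the Lyz1 start codon; the dark bar marks the coding sequence. Most windows hold several differences, up to 13 near the start of the coding sequence, and a few hold none.

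Lyz2 was the dominant member in every library. Its level in the gene table was 5751, 4138 and 3849 TPM (transcripts per 1000000, a level per transcript length) in replicates 1, 2 and 3, from 315327, 752734 and 333155 expected counts, which are the estimated numbers of reads. Replicate 1 stood above the other 2 libraries, which lay close together. The mean was 4579 ± 1025 TPM (SD, n = 3). The TPM total includes small structural RNAs, and the part held by nuclear-encoded protein-coding genes was 24.97%, 22.0% and 19.6% in replicates 1, 2 and 3, the same order as the Lyz2 level. Rescaled so that nuclear protein-coding genes alone sum to 1000000, Lyz2 stood at 23032, 18809 and 19588, or 2.05% ± 0.225 of all protein-coding TPM (SD, n = 3). Replicate 1 remained the highest on that scale, while replicates 2 and 3 changed places. Among nuclear protein-coding genes Lyz2 ranked 3, 4 and 4 by TPM in replicates 1, 2 and 3.

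Mpeg1, the perforin-2 gene, was the next most abundant. It stood at 701, 556 and 592 TPM in replicates 1, 2 and 3 (617 ± 75.5, SD, n = 3), from 145658, 378605 and 192094 expected counts. After rescaling the values were 2809, 2529 and 3015, so the highest library was replicate 1 as deposited and replicate 3 after rescaling, and replicate 2 was the lowest on both scales. Its rank among protein-coding genes was 29, 34 and 27. Within a library Lyz2 exceeded Mpeg1 8.20, 7.44 and 6.50 times in replicates 1, 2 and 3 by TPM, a log2 difference in level of 2.88 ± 0.17 (SD, n = 3), and their ranges did not overlap. With 3 libraries an exact sign-flip test cannot give a two-sided p below 0.25, so the order is given as a description.

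Lyz1 was close to the detection threshold of 1 TPM used here. Its level was 1.52, 1.34 and 1.08 TPM in replicates 1, 2 and 3 (1.31 ± 0.221, SD, n = 3), and 6.09, 6.09 and 5.50 after rescaling. Replicate 3 was the lowest on both scales. The expected counts were 79.0, 232 and 89.1, with exact Poisson 95% intervals of 62.5 to 98.5, 203 to 264 and 71.5 to 110 for the rounded counts, which cover counting error only. Lyz1 ranked 8638, 8684 and 8890 of 22015 protein-coding genes. Lyz2 exceeded Lyz1 3783, 3088 and 3564 times by TPM (log2 difference in level 11.76 ± 0.15, SD, n = 3), and Mpeg1 exceeded it by a log2 difference in level of 8.88 ± 0.20.

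Pglyrp1 was at the edge of what the depth could show. Only 1, 9 and 9 expected counts were assigned to it, in libraries of 27282444, 81509889 and 37131774 gene counts. Divided by the library total this gives 0.0367, 0.110 and 0.242 CPM (counts per 1000000 gene counts) in replicates 1, 2 and 3, with exact Poisson 95% intervals of 0.000928 to 0.204, 0.0505 to 0.210 and 0.111 to 0.460. Replicate 3 was highest, but the intervals of all pairs of libraries overlapped. The level was 0.04, 0.11 and 0.26 TPM, as deposited with 2 decimals, below the lowest Lyz1 value of 1.08 TPM in every library. The count in replicate 1 is under the 3 counts that a count of 0 allows, which correspond to 0.110, 0.0368 and 0.0808 CPM in replicates 1, 2 and 3. Of the 4 genes, 3 reached 1 TPM in all libraries, as did 40.5% of all nuclear protein-coding genes. In the second transcript table, where Lyz1 stood at 0.604, 0.438 and 0.329 TPM, 2 of the 4 did. The share of all protein-coding genes that did so in that table was not computed. Rescaled to the protein-coding total of that table, Lyz1 stood at 5.74, 4.91 and 4.90 in replicates 1, 2 and 3.

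**Figure D2:**
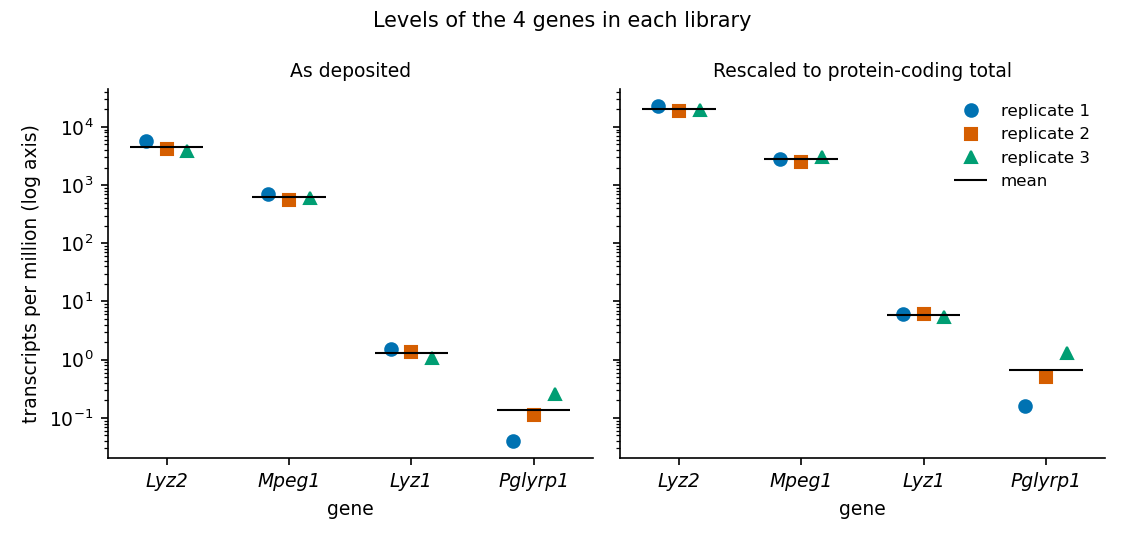
Level of each gene in each library, as TPM of the gene table on the left and rescaled to the protein-coding total on the right (log axes; points are replicates, bars their mean). Lyz2 and Mpeg1 lie far above Lyz1 and Pglyrp1 on both scales, and only Pglyrp1 differs several times between libraries.

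Most of the few Pglyrp1 reads were assigned to its protein-coding transcript. In the first transcript table the protein-coding transcript received 1, 8 and 6.78 counts in the order of the replicates. A processed transcript with exons farther upstream held 2.22 counts in replicate 3, and a transcript with a retained intron held 1 count in replicate 2. In the second table the coding transcript held 2, 11 and 8.68 estimated counts. The other processed transcript had 0 counts in both tables. These counts are too few to tell the transcripts' shares apart.

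The summed level of neutrophil markers had the same order over the libraries as Pglyrp1, but not every marker did. Of 12 such markers 5 reached 1 TPM in all 3 libraries, a share near the 40.5% of all nuclear protein-coding genes, and the summed rescaled TPM of all 12 was 152, 197 and 227 in replicates 1, 2 and 3, against 0.160, 0.50 and 1.32 for Pglyrp1. Of their defining members, Ly6g had 0, 0 and 1 expected counts and the granule gene Camp 0, 12 and 7. Ngp, a granule protein gene of neutrophil precursors, stood at 1.26, 1.74 and 2.83 TPM and Ltf, the lactoferrin gene, at 0.39, 0.25 and 1.02 TPM. Cxcr2, a chemokine receptor of mature neutrophils, and Retnlg ran the other way, with 11, 22 and 3 and with 3, 1 and 0 counts, or 0.08, 0.05 and 0.01 TPM and 0.16, 0.02 and 0 TPM. After rescaling, Csf3r (57.5, 54.0 and 66.0), Mmp8 (18.7, 18.6 and 19.7), Mpo and Ltf were lowest in replicate 2 and highest in replicate 3. Camp, Elane, Ngp, S100a8 and S100a9 rose from replicate 1 to replicate 3 as Pglyrp1 did. Most of the sum came from S100a9, Csf3r and S100a8, at 13.1, 13.1 and 8.65 TPM on average, genes that are also transcribed by monocytes and macrophages. Replicate 3 also had the most Malat1, a nuclear RNA, at 1439, 1127 and 3884 rescaled TPM in replicates 1, 2 and 3. The part of other cells or of nuclear RNA in the Pglyrp1 counts was not tested, and in bulk RNA fewer cells of a type cannot be told apart from less RNA per cell.

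The macrophage label was matched by its markers. The counts of markers below stand beside the 40.5% of all nuclear protein-coding genes that reached 1 TPM in all 3 libraries. All 7 macrophage markers reached 1 TPM in every library, led by Cd68 at 618 ± 48.4, Csf1r at 214 ± 41.3 and Adgre1 at 139 ± 20.1 TPM (SD, n = 3), so Mpeg1 lay at the level of Cd68. Of 7 Paneth cell and intestinal markers none reached 1 TPM, and Defa17, Defa24, Defa30, Itln1 and Epcam had 0 counts in all 3 libraries. Their summed level was at most 0.04 TPM in any library, most of it from Cdh1, beside 1.08 to 1.52 TPM of Lyz1. Of 6 dendritic cell markers none reached 1 TPM in all libraries, the highest being Ccr7 at 0.473, Siglech at 0.20 and Clec9a at 0.133 TPM. Nor did any of 7 B and T cell markers, with Cd79b at 0.743, Lck at 0.0867 and Cd3e at 0.040 TPM on average.

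The 2 quantifications gave almost the same division of reads between the paralogs. In the gene table, which rests on alignments to the transcriptome, Lyz1 took 0.0251%, 0.0308% and 0.0267% of the Lyz1 and Lyz2 counts in replicates 1, 2 and 3. The exact Clopper-Pearson 95% intervals were 0.0198 to 0.0312%, 0.0270 to 0.0350% and 0.0214 to 0.0329%. In the second transcript table, which was made directly from the reads, the shares were 0.0254%, 0.0264% and 0.0254%. The means were 0.0275% ± 0.00297 and 0.0257% ± 0.000586 (SD, n = 3). In replicates 1 and 3 the share in the second table lay within the interval of the gene table. In replicate 2 it lay just under the lower bound, and the intervals of both tables, 0.0270 to 0.0350% and 0.0229 to 0.0302%, overlapped. The tables count the same reads, so these intervals describe counting error and do not test the tables against each other.

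The second table assigned more reads to the pair, nearly all of them to Lyz2. From the first to the second, the Lyz2 count was larger by 5.14%, 3.83% and 4.29% in replicates 1, 2 and 3, and all protein-coding counts by 8.76%, 7.01% and 8.40%. The Lyz1 count changed by 5.14, -25.7 and -0.854 reads in the same order, while Lyz2 gained 16195, 28851 and 14294. Replicate 2, the most deeply sequenced library, held the largest change of Lyz1, from 232 to 206 counts. Within the first estimate the uncertainty of the split was small: the deposited posterior SD of the Lyz1 count was 0.20, 0.35 and 0.22 reads. How many of the Lyz1 counts were misplaced reads of the far more abundant Lyz2 was not tested.

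**Figure D3:**
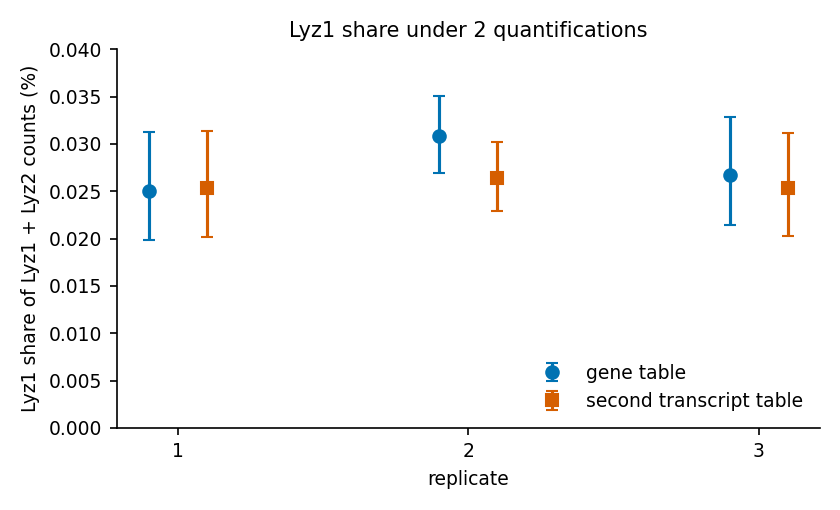
Share of Lyz1 in the counts of Lyz1 and Lyz2 in percent, by replicate, for the gene table (circles) and the second transcript table (squares), with exact 95% binomial intervals. All 6 shares lie between 0.0251% and 0.0308%, and the intervals overlap.

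The level of each gene was then compared between the first and second transcript tables after rescaling. The log2 ratio of levels, second over first, was -0.10, -0.09 and -0.09 for Lyz2 and -0.09, -0.08 and -0.06 for Mpeg1 in replicates 1, 2 and 3. For Lyz1 it was -0.08, -0.31 and -0.17. Thus all 3 genes were lower in the second table in every library, by means of 0.09, 0.08 and 0.19 on the log2 scale. The median over 9165 protein-coding genes averaging 1 TPM or more was 0.00455. The lowest 5% lay under -0.16, which Lyz1 passed on average and Lyz2 and Mpeg1 did not. By library this limit was -0.160, -0.183 and -0.165 in replicates 1, 2 and 3. Lyz1 did not pass it in replicate 1, passed it clearly in replicate 2 and only just in replicate 3, at -0.167. None of these 3 differed more than 2-fold in all libraries, beside 0.175% of the protein-coding genes that were higher and 0.327% that were lower by that much. Pglyrp1, which fell outside that set for its low level, had log2 ratios of 1.35, 0.38 and 0.17, and the first of these rests on 1 against 3.09 counts. Before rescaling all 4 mean ratios were below 0, with -0.73 for Pglyrp1, -1.55 for Lyz1, -1.46 for Lyz2 and -1.44 for Mpeg1. Protein-coding genes held 10.5%, 8.92% and 6.71% of the TPM total of the second table, less than in the gene table.

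**Figure D4:**
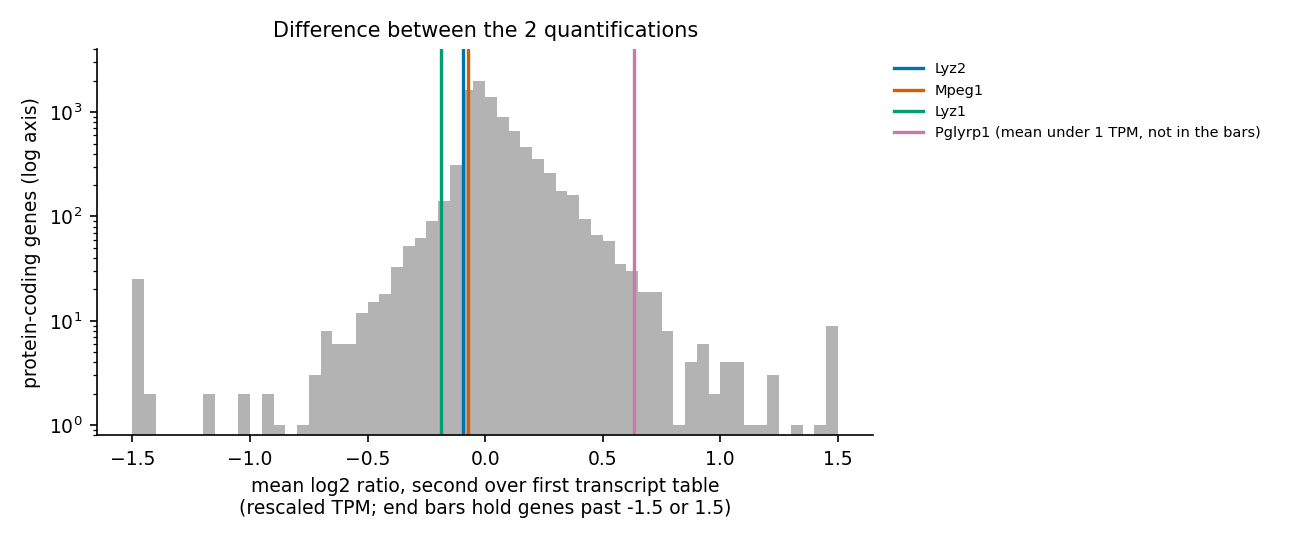
Mean log2 ratio of rescaled TPM over 3 libraries, second over first transcript table, for protein-coding genes whose mean TPM reached 1 (grey bars, log axis), with the 4 genes as lines. Lyz2, Mpeg1 and Lyz1 lie a little below 0 and Pglyrp1, which is not among the genes in the bars, lies above.

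Lyz2 and Mpeg1 varied between libraries about as much as other abundant genes. The SD of log2(rescaled TPM + 1) was 0.15 for Lyz2 and 0.13 for Mpeg1, against a median of 0.14 over 313 protein-coding genes averaging 100 TPM or more. It was 0.07 for Lyz1, beside a median of 0.0965 over the 9165 genes averaging 1 TPM or more. That order turned with TMM, which gave 0.118 for Lyz1 and a median of 0.0957, with DESeq2 size factors (0.114 and 0.0944), in the second table (0.111 and 0.104) and without replicate 1 (0.0892 and 0.0802) or 2 (0.0888 and 0.0829). The SD was 0.51 for Pglyrp1, whose counts carry a large counting error. Without replicate 1 the SD of Lyz2 was 0.04, without replicate 2 that of Mpeg1 was 0.07, and without replicate 3 those of Lyz1 and Pglyrp1 were 0.000432 and 0.26. Likeness of pattern was measured as the root mean square distance of log2(rescaled TPM + 1), centred on each gene's mean over the 3 libraries. The added 1 flattens the pattern of low genes, most of all that of Pglyrp1, at 0.160, 0.50 and 1.32 rescaled TPM in replicates 1, 2 and 3. Among protein-coding genes averaging 10 TPM or more, Ly9, Rnf11 and Mapre1 were nearest to Lyz2. Snx13, Ranbp2 and Rpn1 were nearest to Mpeg1, Tbc1d9b, Akr1a1 and Hmox2 to Lyz1, and Lpl, Lrp1 and Tuba1c to Pglyrp1. Within a distance of 0.05 there were 87 genes for Lyz2, 260 for Mpeg1, 623 for Lyz1 and 0 for Pglyrp1, so with 3 libraries the nearest names of Lyz2, Mpeg1 and Lyz1 are a few among many. Those of Pglyrp1 lay at 0.0652, 0.113 and 0.130, farther away than those of the other members. Its pattern rests on 1, 9 and 9 counts, and its nearest names are not taken as distinctive either. The distance was not scaled by spread, and the SD of Pglyrp1 exceeded that of 98.5% of the 9165 genes. Why no gene lay within 0.05 of it was not tested.

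The difference between the lysozyme paralogs was set beside their surroundings and upstream sequence. Within 100000 bases on either side, the flanking genes Yeats4, a chromatin reader, and Cpsf6, a factor of mRNA 3′ processing, stood at 10.5 ± 0.982 and 8.94 ± 0.941 TPM (SD, n = 3). The gene 9530003J23Rik, for which RefSeq lists the synonym Lyzf1, had 0, 1 and 0 expected counts. Lyz1 thus lay below both flanking genes and Lyz2 far above them in every library. These neighbours were looked at after the levels were known.

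The upstream sequences are shown as a description, and their part in the difference in level was not tested. They hold 201 bases, from 250 to 50 bases before the start that RefSeq gives, because the GENCODE start of Lyz2 lies 49 bases upstream of the RefSeq start and later bases would be transcribed there (RefSeq, GRCm38.p6, minus strand, chr10:117292918-117293118 for Lyz1 and chr10:117282322-117282522 for Lyz2), with bases that have no equal in an alignment of both in capitals.

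Lyz1: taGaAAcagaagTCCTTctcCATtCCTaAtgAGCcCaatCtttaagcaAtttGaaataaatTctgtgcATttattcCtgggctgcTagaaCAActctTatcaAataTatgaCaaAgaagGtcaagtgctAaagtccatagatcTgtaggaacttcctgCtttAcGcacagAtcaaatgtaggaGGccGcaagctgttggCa

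Lyz2: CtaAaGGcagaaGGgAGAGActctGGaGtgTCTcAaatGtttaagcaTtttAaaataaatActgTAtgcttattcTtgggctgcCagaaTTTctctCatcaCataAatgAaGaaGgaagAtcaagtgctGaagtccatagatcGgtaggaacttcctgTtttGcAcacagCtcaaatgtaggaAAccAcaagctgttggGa

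Of 195 upstream bases aligned with gaps 155 were identical, 79.5%, beside the 95.1% of the coding sequence, which was compared without gaps. Other pairs of paralogs were not compared. The letters AGGAAG, which fit the core bound by the myeloid factor PU.1, were searched on both strands and occurred once in this window of Lyz1 and at 2 places in that of Lyz2. They were found at 3 places in the corresponding first 201 bases of the RefSeq window of Pglyrp1, at none in that of Mpeg1, and in 24.0% of 32851 such windows. The letters GAGGAA, which can overlap with AGGAAG, occurred at 2 places in Pglyrp1, at none in the other genes, and in 18.8% of windows. The letters ATTGC, a part of many C/EBP sites, occurred once in Lyz1, in none of the other genes, and in 19.7% of windows. These letters were chosen after the sequences were seen. A match is a description of letters and was not tied to binding or to the levels.

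Other genes of the same families or of related functions were taken from 5 lists. Membership in a family does not show the same function. The genes of the lysozyme and pore-forming lists were nearly all at or close to 0. Of all nuclear protein-coding genes 40.5% reached 1 TPM in all libraries. Of 8 other lysozyme-family genes only Lyzl4, a lysozyme-like gene, did, at 1.33, 1.04 and 1.05 TPM (49, 129 and 62 expected counts). Its range overlapped that of Lyz1. The other 7 had 0 counts in every library. Of 7 other genes of pore-forming complexes, which include lymphocyte perforin and the late complement components, 0 reached 1 TPM, beside the same 40.5%. The median of both lists was 0 TPM. In the latter the highest was C8g, the lipocalin-like chain of complement C8, at 0.310 ± 0.113 TPM (SD, n = 3), C9 and C6 had 1 count each in all 3 libraries together, and Prf1 had none. Gsdmd, a pore-forming gasdermin of the killing effector list, stood at 15.16, 11.77 and 11.39 TPM, far below Mpeg1.

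Of 10 genes of peptidoglycan recognition and sensing 6 reached 1 TPM in all libraries, beside 40.5% of all nuclear protein-coding genes. The list median was 3.43 TPM, and Pglyrp2, Pglyrp3 and Pglyrp4 had 0 counts. Slc15a3, a transporter of the lysosomal membrane, led at 104 ± 4.80 TPM, followed by Slc46a3, another lysosomal carrier, at 25.2 ± 2.77 and Tlr2, a receptor for bacterial lipoproteins, at 20.7 ± 11.5 (SD, n = 3). Nod1 and Ripk2, a cytosolic peptidoglycan sensor and its kinase, stood at 4.37 and 2.48 TPM on average. Nod2, the sensor of muramyl dipeptide, was at 1.03, 0.770 and 0.680 TPM.

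The list of macrophage killing effectors had a higher median level than that of granule genes. Both lists were chosen with earlier results of these data known, so this order may follow from the choice of genes. Of 13 granule genes 4 reached 1 TPM in all libraries, not far from the 40.5% of all nuclear protein-coding genes. They were Chil3 at 3.74 ± 1.75 TPM (SD, n = 3) beside Ngp, S100a8 and S100a9 described above, and the median of the 13 was 0.490 TPM. Of 14 macrophage killing effectors 12 did, with a median of 24.5 TPM. Bst2, an antiviral membrane tether, stood at 115 ± 37.0 TPM, Cybb, the catalytic subunit of the phagocyte oxidase, at 91.0 ± 25.2 and Slc11a1, a metal transporter of the phagosome, at 89.0 ± 10.8. The exceptions were Nos2 and the hepcidin gene Hamp, with 5, 7 and 3 counts and none. The median over all nuclear protein-coding genes was 0.137 TPM. Lyz2 and Mpeg1 were higher than each other gene of these 5 lists in all 3 libraries.

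**Figure D5:**
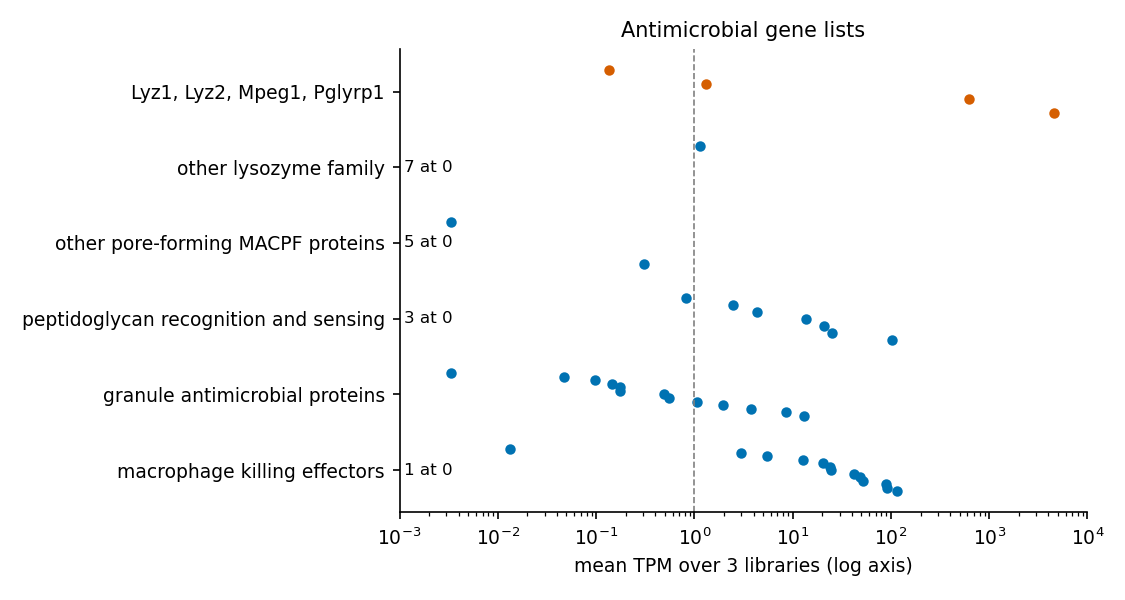
Mean TPM over 3 libraries (log axis) of the 4 genes (orange) and of the members of 5 lists of genes of related families or functions (blue). The dashed line marks 1 TPM, and members listed at 0 TPM are given as a number. Lyz2 and Mpeg1 lie to the right of every other member, and Lyz1 lies beside Lyzl4.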

How the data were processed

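RNA was measured in 3 libraries of 1 condition. Expected counts, TPM, FPKM and isoform percentages per gene or transcript were deposited by the authors from alignments to the transcriptome, and estimated counts and TPM of a second transcript table were deposited from reads directly, per the file headers and the labels. The labels name mm10. The annotation was taken as GENCODE M21 because its identifiers equal those of the tables. Tools and strandedness were not found in the sources. Analyses used Python 3.11.15, numpy 2.4.6, pandas 2.3.3, scipy 1.17.1 and Biopython 1.88, and for other scalings edgeR 4.0.16 and DESeq2 1.42.0. Levels were TPM, also rescaled to nuclear protein-coding genes. Spreads were SDs of log2(value + 1). Gene and transcript tables were joined by identifier. Intervals were exact, at 95%, and covered counting error only. Calculations were tested on simulated data. Members and lists were chosen with earlier results of these data known. All 4 members were named, with up to 3 genes per list by highest mean TPM, the 3 genes of nearest pattern and Malat1. Other genes were named after their values were seen.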

Additional observations from a re-analysis of the deposited data

How the results depend on the processing

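No paired analysis was possible because there is 1 group. Of 157 values of 23 results under other settings, 120 stayed within the replicate SD or, for spreads and counts, within 1.5 times. A further 36 moved and 1 reversed. For levels, shares and differences, leaving out 1 of 3 libraries cannot move a mean by as much as the SD, so those values had to stay. FPKM also had to repeat the ratios between members, and posterior mean counts repeated the Lyz1 share. The 120 is therefore no measure of stability. Mean levels of Lyz1, Lyz2, Mpeg1 and Pglyrp1 were 5.89, 20476, 2784 and 0.661 after rescaling and 2.60, 9055, 1226 and 0.28 as FPKM. Both are other units than the deposited TPM, so these moves are changes of scale. In the second table those of Lyz1, Lyz2 and Mpeg1 were 0.457, 1690 and 229 TPM, and the posterior mean of Pglyrp1 was 0.26 TPM. With TPM as deposited, the log2 difference between tables was -1.55 for Lyz1, -1.46 for Lyz2, -1.44 for Mpeg1 and, reversed, -0.73 for Pglyrp1. Without rescaling these values include a change of scale, since protein-coding genes held a smaller part of the TPM total in the second table. With counts as a share of all protein-coding counts it was -0.0494 for Lyz2 and -0.0250 for Mpeg1. Spreads with TPM as deposited were 0.14 for Lyz1, 0.31 for Lyz2, 0.14 for Pglyrp1 and 0.16 for the protein-coding median. That of Lyz1 was 0.11 in the second table, 0.12 with TMM and 0.11 with DESeq2 size factors. That of Pglyrp1 was 1.23 with a pseudocount of 0.1, 0.96 with TMM and 1.11 with DESeq2 size factors, and the protein-coding median was 0.0518 without a filter. Leaving out 1 library gave spreads of 0.000432 to 0.0892 for Lyz1, 0.0414 to 0.207 for Lyz2, 0.0721 to 0.179 for Mpeg1 and 0.262 to 0.708 for Pglyrp1. At 5 TPM 0 other lysozyme genes and 2 granule genes counted as detected. In the second table the number of other lysozyme genes was 0, and after rescaling 7 granule genes counted as detected. For these other settings the share of all nuclear protein-coding genes was not computed. Another threshold or scale applies to every gene, so these counts show nothing particular to the lists. Where other values moved, the cause was not tested. Depth limits Pglyrp1, with 1 to 9 counts. The intervals of the Lyz1 share overlapped between the 3 libraries, and whether more depth would part them was not tested.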
